A study of Mus musculus with 2 samples.

Results

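The miR-30 family was examined in tissue labelled as layer of hippocampus from B6CASTF1/J males, 2 months old, a hybrid strain bred from C57BL/6J and CAST/EiJ parents. The 6 genes taken as the family were Mir30a, Mir30b, Mir30c-1, Mir30c-2, Mir30d and Mir30e, matched by Ensembl identifier through GENCODE M21, out of 2202 miRNA genes in the tables. Small-RNA fragments were sequenced as microRNA-seq libraries, which formed 1 group of 2 biological replicates, so no treatment, genotype or age was compared. The labels name 2 biosamples but 1 donor entry, and spread between the libraries may not be spread between animals.

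MicroRNAs begin as hairpins that nuclear and cytoplasmic nucleases trim to short duplexes. One strand, the 5p or the 3p arm, is loaded into an Argonaute protein and pairs with messenger RNAs mainly through bases 2 to 8, the seed, which lowers translation and stability of the targets. The miR-30 family is defined by the seed its 5p arms share, and is known for restraining the autophagy gene Becn1 and the epithelial-mesenchymal factor Snai1. In brain, miR-30a is known to act on Bdnf, the messenger RNA of a neurotrophin, and its seed relative miR-384 is known from work on synaptic potentiation in the hippocampus.

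Mature sequences from RefSeq (GRCm38.p6, the patched form of mm10) were matched for 4 of the 6 members, Mir30a, Mir30c-1, Mir30c-2 and Mir30e. They are printed 5′ to 3′ with the seed in capitals, because the shared seed makes the family and the bases after it decide whether a read can be placed on 1 gene. The 5p arms, with that of Mir384 for comparison, were:
miR-30a-5p: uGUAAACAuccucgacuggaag
miR-30e-5p: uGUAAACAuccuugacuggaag
miR-30c-5p: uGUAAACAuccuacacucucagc
miR-384-5p: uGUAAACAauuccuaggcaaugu

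All of these carried the seed GUAAACA. Of 1738 mature entries in the RefSeq table, 5 had it, namely the entries of the 4 matched members and that of Mir384. Counting positions from 1 at the 5′ end, miR-30a-5p and miR-30e-5p differed only by C13U. The 5p arm of miR-30c differed from that of miR-30a by C13A, G14C, G18C, G19U and A20C, which leaves 12 leading bases in common. Between miR-30c-5p and miR-384-5p, 12 of 23 bases differed and 8 leading bases were common.

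The 3p arms of the matched members fell into 2 seed groups, again with the seed in capitals:
miR-30a-3p: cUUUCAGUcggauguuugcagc
miR-30e-3p: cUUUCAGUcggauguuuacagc
miR-30c-1-3p: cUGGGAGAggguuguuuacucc
miR-30c-2-3p: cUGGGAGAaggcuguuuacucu

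The 3p arms of Mir30a and Mir30e shared the seed UUUCAGU and differed by G18A alone. Those of Mir30c-1 and Mir30c-2 shared UGGGAGA and differed by G9A, U12C and C22U. The table held 1 further entry with UGGGAGA, miR-6958-5p, whose gene Mir6958 had 5 counts in replicate 1 and 6 in replicate 2. Each deposited count covers a whole hairpin gene, so 5p and 3p reads of a member cannot be separated, and no arm has a level of its own here.

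The 2 Mir30c genes make the same 5p arm. Their hairpins are shown with the longest shared stretch in capitals, since a read lying inside it matches both:
Mir30c-1 (chr4:120769534-120769622, minus strand): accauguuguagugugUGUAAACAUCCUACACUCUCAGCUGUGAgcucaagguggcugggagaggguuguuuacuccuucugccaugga
Mir30c-2 (chr1:23291701-23291784, plus strand): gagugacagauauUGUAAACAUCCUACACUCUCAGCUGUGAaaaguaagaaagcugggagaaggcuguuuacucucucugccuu

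The shared stretch was 28 nt and held the whole 23 nt of miR-30c-5p. The remaining 4 members shared an exact stretch of at most 18 nt with any other listed miRNA gene at another position. Mismatch settings of the alignment are not given. Reads of nearly identical arms, such as those of Mir30a and Mir30e, may therefore also be misplaced or set aside. In the deposited tables, reads placed at several positions stand in a row of their own that belongs to no gene. That row held 42.6% of the 6441333 reads of replicate 1 and 46.0% of the 10003856 reads of replicate 2, against 36.1% and 34.1% counted on miRNA genes (2322520 and 3414105 counts). How many of these unplaced reads were miR-30c-5p was not measured, so the counts of Mir30c-1 and Mir30c-2 are uncertain and can be too low.

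The members lie on 3 chromosomes of mm10. Mir30a (ENSMUSG00000065405.3, chr1:23272269-23272339, plus strand) overlaps no other annotated gene, while Mir30c-2 (ENSMUSG00000065567.1) overlaps an exon of the long noncoding RNA gene Gm27028. Mir30c-1 (ENSMUSG00000065490.1) and Mir30e (ENSMUSG00000065409.1, chr4:120772606-120772697, minus strand) both lie in an intron of Nfyc, which encodes a subunit of the CCAAT-binding factor NF-Y, on the strand of that gene. Mir30b (ENSMUSG00000065476.2, chr15:68337415-68337510, minus strand) overlaps an exon of the noncoding gene Gm26621, and Mir30d (ENSMUSG00000065437.1, chr15:68341208-68341289, minus strand) exons of Gm20732 and Gm37296.

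Levels are given as CPM, the counts of a gene scaled so that all miRNA genes of a library sum to 1000000, from reads on the strand of the gene. The family summed to 12198 CPM in the first replicate and 14548 in the second, a mean of 13373 ± 1662 CPM (SD, n = 2). That was 1.22% of miRNA-gene counts in replicate 1 (Wilson 95% interval 1.21 to 1.23) and 1.45% in replicate 2 (1.44 to 1.47). The intervals do not overlap, but intervals here and below cover counting error only and no other spread between libraries. They can also be too narrow, since amplified reads without molecular identifiers are not independent molecules. The tissue is bulk, so fewer cells of a type and less RNA per cell cannot be told apart.

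Mir30a, Mir30d and Mir30e carried nearly all of these counts, and Mir30b and the 2 Mir30c genes little. For Mir30d the level was 4787 CPM in replicate 1 and 5731 in replicate 2. Mir30a had 3964 and 4769 CPM, and Mir30e 2822 and 3522 CPM. All 3 were higher in replicate 2, and they ranked 37, 40 and 47 by mean CPM among the 2202 listed genes. Together they held 94.9% of miR-30 counts in replicate 1 and 96.4% in replicate 2.

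Mir30c-2 stood far lower, with 338 CPM in replicate 1 and 247 in replicate 2. Mir30c-1 had 165 and 150.0 CPM. Mir30b was the lowest at 121 and 129 CPM. These 3 genes ranked 147, 175 and 187 by mean, and unlike the other members the Mir30c genes had their lower value in replicate 2. All 6 members passed the detection minimum of 2 CPM in both libraries, as did 401 of the 2202 genes.

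**Figure D1:**
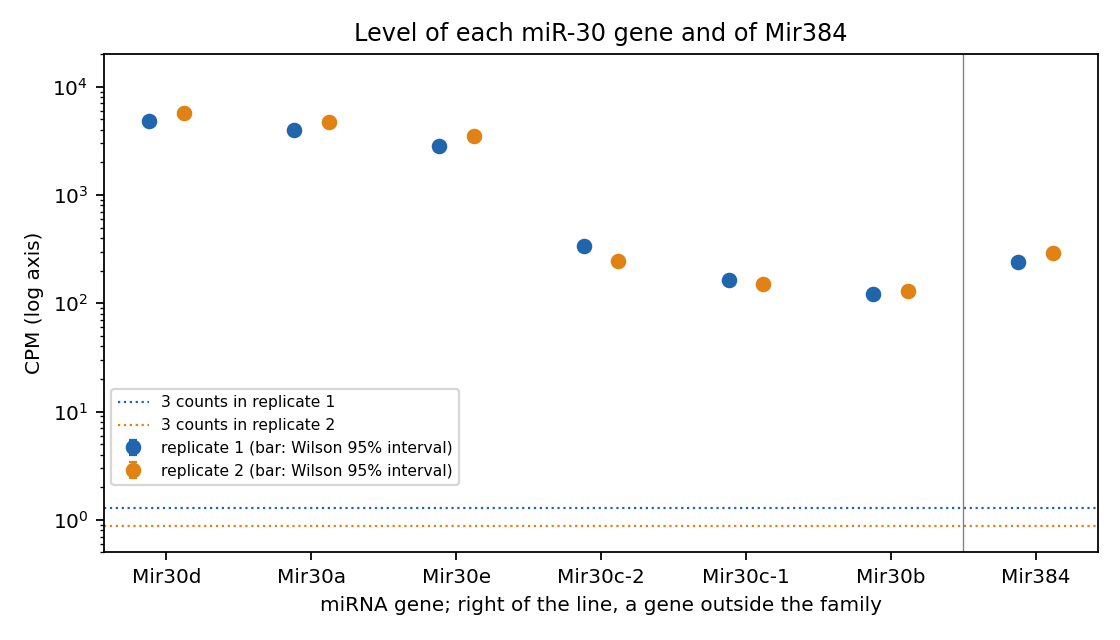
CPM on a log axis of the 6 miR-30 genes and of Mir384, in replicate 1 (blue) and replicate 2 (orange), with Wilson 95% intervals that are mostly smaller than the points and dotted lines at 3 counts. Mir30d, Mir30a and Mir30e lie between 2822 and 5731 CPM, and the other members between 121 and 338 CPM.

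In the order of mean CPM (Mir30d, Mir30a, Mir30e, Mir30c-2, Mir30c-1, Mir30b), every gene had its lower library above the higher library of the next gene. The gap between the first 2 was narrow, since the lower value of Mir30d, 4787 CPM, lay just above the higher value of Mir30a, 4769 CPM. Within each library Mir30d exceeded Mir30a by close to the same factor, 1.21-fold and 1.20-fold. The widest step lay between Mir30e and Mir30c-2, at 8.35-fold in replicate 1 and 14.3-fold in replicate 2. Mir30d exceeded Mir30b, at the other end, 39.6-fold and 44.3-fold.

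A microRNA read usually spans a whole arm, but levels were also compared per annotated nucleotide because the annotated genes run from 71 nt (Mir30a) to 96 nt (Mir30b). On that scale Mir30d was at 58.4 and 69.9 CPM per nt and Mir30a at 55.8 and 67.2. Their ranges over the libraries thus overlapped, although Mir30d was still the higher within each library. The other 4 steps remained apart. No test of one gene against another was made, since 2 libraries cannot give a two-sided sign-flip p under 0.5.

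The 2 most abundant genes, Mir30d and Mir30a, took like shares of the family in the 2 libraries. Mir30d gave 39.2% of miR-30 counts in replicate 1 and 39.4% in replicate 2, and Mir30a 32.5% and 32.8%, with overlapping Wilson intervals for each. The share of Mir30e was 23.1% in replicate 1 (95% interval 22.6 to 23.6) and 24.2% in replicate 2 (23.8 to 24.6). Mir30c-2 held 2.77% (2.59 to 2.97) and 1.70% (1.59 to 1.81), and Mir30c-1 1.35% (1.22 to 1.49) and 1.03% (0.946 to 1.12). Mir30b held 0.992% and 0.890%, with overlapping intervals. For Mir30e and both Mir30c genes the intervals of the 2 libraries did not overlap, though they take reads as independent. A share also moves with the counts of the other members. The level of Mir30c-1 itself showed no detectable difference (adjusted exact binomial p = 0.176).

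**Figure D2:**
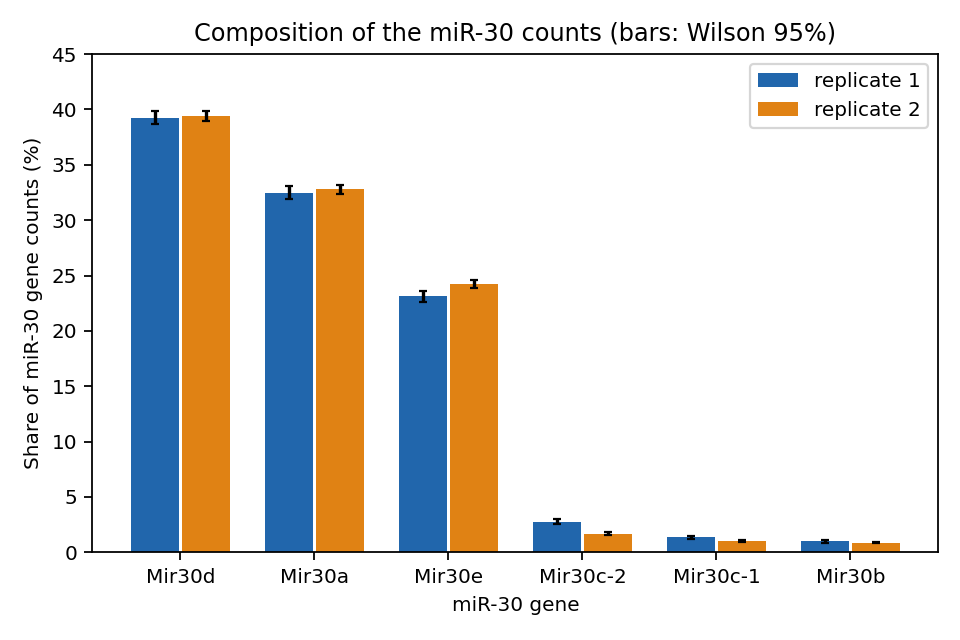
Share of all miR-30 counts (%) given by each member in replicate 1 (blue) and replicate 2 (orange), with Wilson 95% intervals as error bars and the axis from 0. Mir30d and Mir30a have nearly equal bars in both libraries, at 39.2% and 39.4% and at 32.5% and 32.8%, while the Mir30c-2 bar is lower in replicate 2.

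The libraries were compared gene by gene with a two-sided exact binomial test on the counts, scaled by TMM effective library sizes and adjusted by Benjamini-Hochberg over the 401 detected genes. Such a test compares 2 libraries, not conditions. Of the 6 members 4 differed, beside 50.9% of all tested genes, so a call was common among all genes. Mir30a, Mir30d and Mir30e were higher in replicate 2 (28.2% of tested genes were called in that direction), and Mir30c-2 was lower (22.7%).

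Mir30e, with 6554 and 12026 counts, had the widest fold of the leading genes, 1.23-fold higher in replicate 2 (exact 95% interval 1.19 to 1.26, adjusted exact binomial p = 3.18e-40). Mir30a, with 9207 and 16281 counts, was 1.18-fold higher (1.15 to 1.21, adjusted exact binomial p = 2.37e-37). Mir30d, with 11119 and 19567 counts, was also 1.18-fold higher (1.15 to 1.20, adjusted exact binomial p = 2.80e-42). All 3 folds lie under the median fold of the tested genes, 1.26, whichever way a gene differed.

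Mir30c-2 had 785 and 842 counts and was 1.39-fold lower in replicate 2 (log2 ratio -0.48, adjusted exact binomial p = 1.04e-10). For its sister Mir30c-1, with 383 and 512 counts, the ratio of replicate 2 to replicate 1 was 0.893 (0.781 to 1.02, adjusted exact binomial p = 0.176). Mir30b had 281 and 442 counts and a ratio of 1.05 (0.903 to 1.23, adjusted exact binomial p = 0.659). For Mir30b and Mir30c-1 the interval includes 1, and a difference was not detectable at this depth.

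No member reached a difference of 1.5-fold, whereas 18.7% of tested genes passed the test at that size or more. The median size of the difference was 1.18-fold over the members and 1.26-fold over the 401 tested genes. Mir30c-2 lay farthest out, with 70.3% of tested genes nearer to no difference, against 45.4% for Mir30e, 37.7% for Mir30a, 36.9% for Mir30d, 26.9% for Mir30c-1 and 11.2% for Mir30b. The share of reads placed at several positions also differed between the libraries, as given above, and its part in the lower Mir30c-2 value was not tested.

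**Figure D3:**
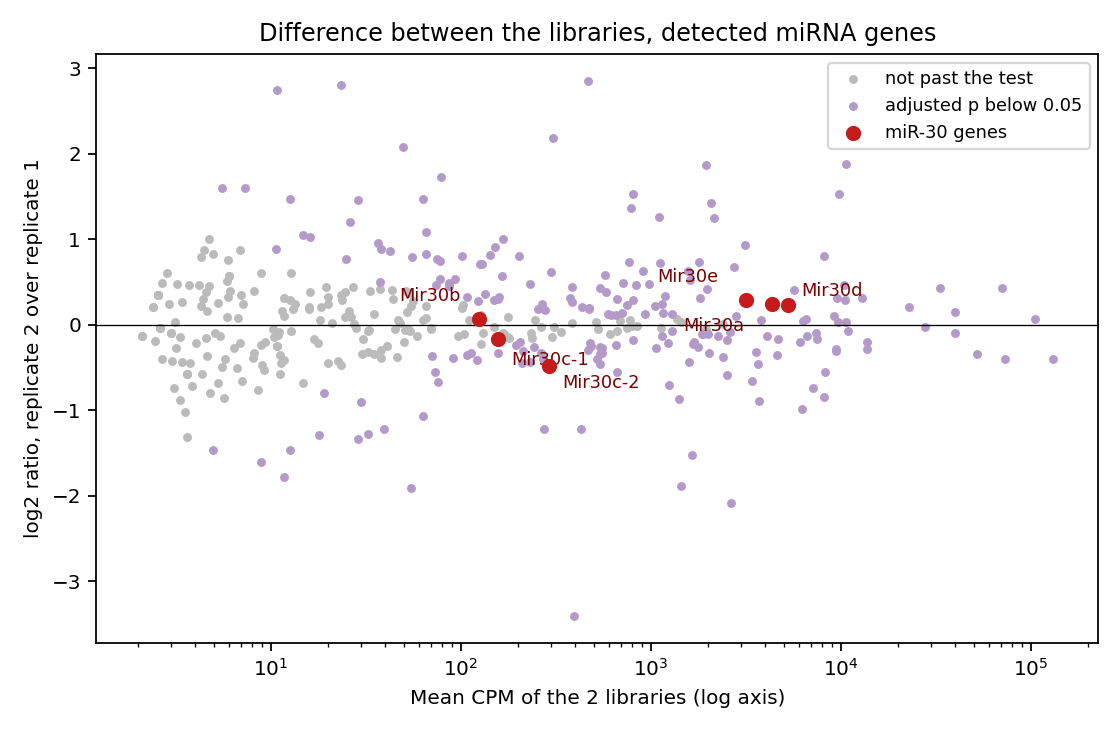
log2 ratio of replicate 2 over replicate 1 against mean CPM (log axis) for the 401 detected miRNA genes, with genes past the exact binomial test in purple, others in grey and the 6 miR-30 genes in red. The miR-30 genes range from -0.48 for Mir30c-2, the farthest from the line of no difference, to 0.29 for Mir30e.

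The members form 3 neighbouring pairs, each on one strand. Mir30e and Mir30c-1 start 3072 bp apart and Mir30d and Mir30b 3793 bp apart, inside the 10 kb set for a pair. Mir30a and Mir30c-2 start 19432 bp apart, and this pair was added with a limit of 25 kb after the positions were seen. In each pair the gene that comes first in the direction of transcription had the higher count in both libraries. Where the second gene is a Mir30c gene, its count can be too low, as given above. The shares and folds of the first gene in those pairs can then be too high. The part of unplaced reads in this order was not tested.

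Mir30e held 94.5% of the counts of its pair with Mir30c-1 in replicate 1 (Wilson 95% interval 93.9 to 94.99) and 95.9% in replicate 2 (95.6 to 96.2). Mir30d held 97.5% of its pair with Mir30b (97.2 to 97.8) and 97.8% (97.6 to 98.0). Mir30a held 92.1% of its pair with Mir30c-2 (91.6 to 92.7) and 95.1% (94.7 to 95.4). The pair of Mir30d and Mir30b was the most alike in the 2 libraries, with overlapping intervals, and in counts its ratio was 39.6 and 44.3. In the other pairs, each of which includes a Mir30c gene, the intervals did not overlap. Mir30e exceeded Mir30c-1 17.1-fold in replicate 1 and 23.5-fold in replicate 2. Mir30a exceeded Mir30c-2 11.7-fold and 19.3-fold.

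**Figure D4:**
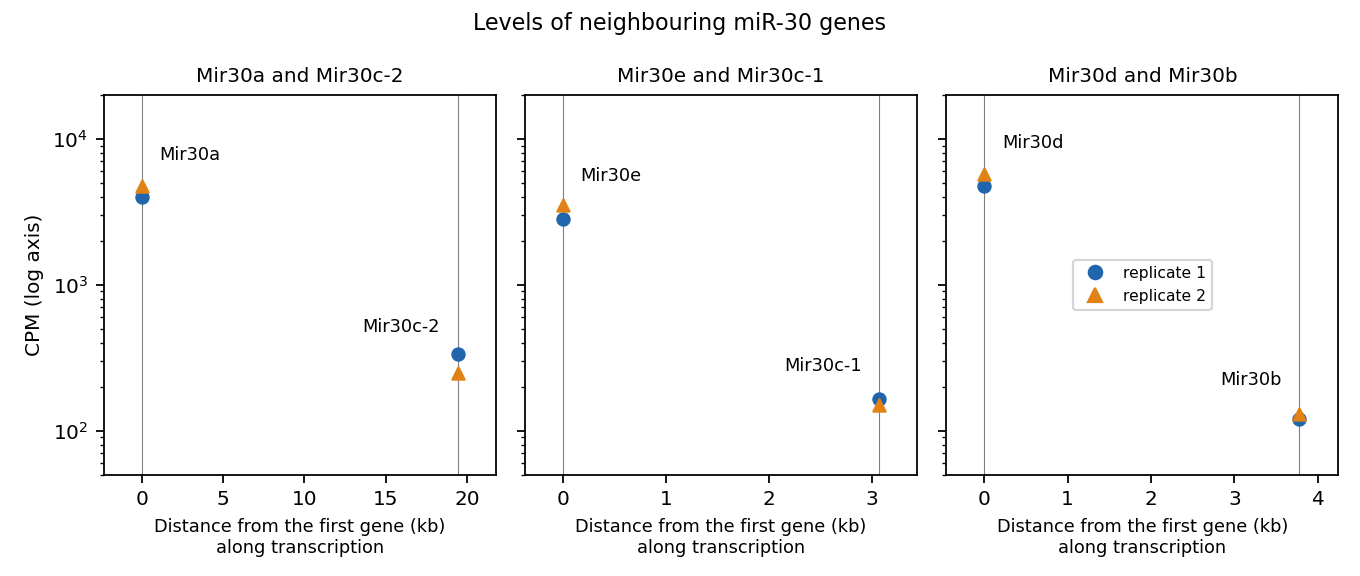
CPM on a log axis of the members of each neighbouring pair against distance in kb along the direction of transcription, for replicate 1 (blue circles) and replicate 2 (orange triangles). In all 3 panels the first gene lies above the second, by 39.6-fold and 44.3-fold for Mir30d over Mir30b.

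Mir30e has a second annotated gene on the other strand of the same 92 bases, Mir30f (ENSMUSG00000105585.1). The mature sequence of Mir30f is the reverse complement of a stretch around the 3p arm of the Mir30e hairpin, marked here in capitals to show that the 2 genes can only be told apart by strand:
Mir30e hairpin: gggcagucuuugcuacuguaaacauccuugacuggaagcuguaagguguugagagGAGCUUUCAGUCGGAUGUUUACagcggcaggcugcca
Mir30f mature, seed in capitals: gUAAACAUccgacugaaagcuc

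The seed of miR-30f, UAAACAU, is set 1 base off from that of the 5p arms, and no other entry of the table had it. Mir30f had 0 counts on its own strand in both libraries, where the upper limit is 3 counts, or 1.29 CPM in replicate 1 and 0.879 CPM in replicate 2. In the column that counts both strands together, Mir30e and Mir30f were both at 0. The row for ambiguous reads held 170529 reads in replicate 1 and 253343 in replicate 2 in that column, and 0 in the same-strand column. Whether the Mir30e reads stand in that row was not tested. In the opposite-strand column, Mir30f held 6554 and 12026 counts, the same numbers as Mir30e in the same-strand column. The level of Mir30e thus rests on the strand-specific column, while the other 5 members had identical counts with and without regard to strand and 0 on the opposite strand.

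**Figure D5:**
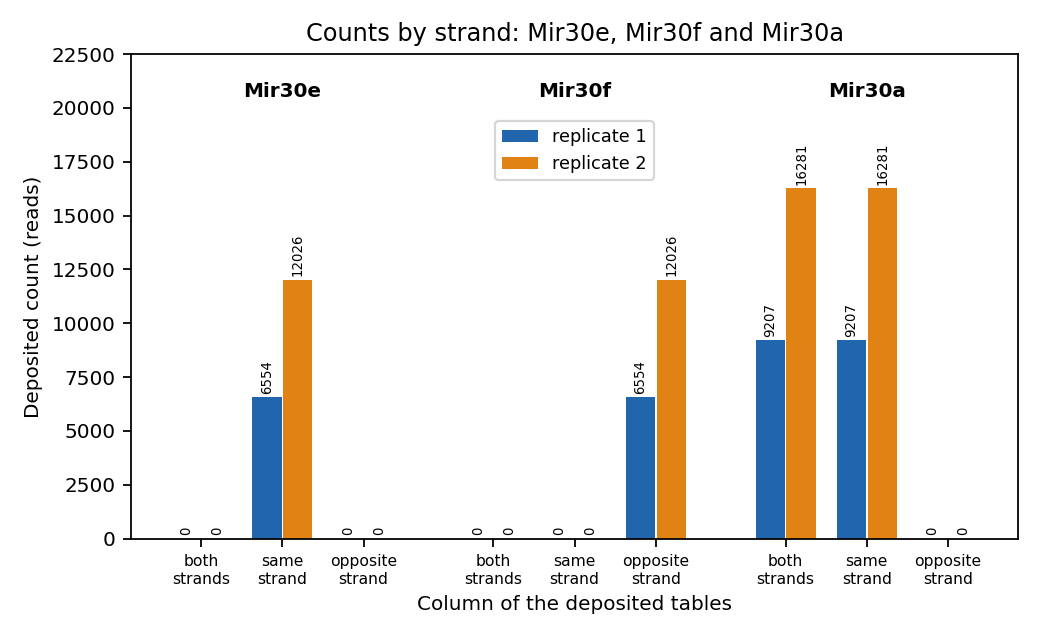
Deposited counts of Mir30e, Mir30f and Mir30a in the columns for both strands together, the gene's own strand and the opposite one, in replicate 1 (blue) and replicate 2 (orange). Mir30e and Mir30f are at 0 in the column for both strands, and 6554 and 12026 counts appear as same-strand for Mir30e and as opposite-strand for Mir30f.

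Mir384 (ENSMUSG00000065499.1, chrX:105344282-105344369, minus strand), a gene with the same 5p seed that the list of members leaves out, overlaps no other annotated gene. Its level was 243 CPM in replicate 1 and 293 in replicate 2, from 564 and 1001 counts. Its mean of 268 ± 35.6 CPM (SD, n = 2) lay between those of Mir30c-2, 292 ± 64.6 CPM, and Mir30c-1, 157 ± 10.6 CPM, and its range overlapped that of Mir30c-2. Like the leading miR-30 genes it was higher in replicate 2, by 1.19-fold (exact 95% interval 1.07 to 1.32, adjusted exact binomial p = 0.00268). Adding it raised the mean sum from 13373 to 13641 CPM.

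The miR-29, miR-26 and miR-181 families, also broadly expressed in brain, were set beside miR-30 as sums, with all their genes detected. The miR-29 family of 4 genes gave 10986 CPM in replicate 1 and 12661 in replicate 2, and miR-30 exceeded it 1.11-fold and 1.15-fold. The miR-181 family of 6 genes summed to 5491 and 5866 CPM, and miR-30 exceeded it 2.22-fold and 2.48-fold. The 3 genes of the miR-26 family summed to 5021 and 14698 CPM, nearly all from Mir26b, with 11611 and 49962 counts, against 13 and 141 for Mir26a-1 and 38 and 78 for Mir26a-2. Relative to it the miR-30 sum was 2.43 times as high in replicate 1 and 0.990 times in replicate 2, so the order of the miR-30 sum and what was mostly Mir26b was not the same in the 2 libraries. The differences between families were not tested, and these sums cover different numbers of genes and only reads that could be placed on 1 gene.

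The gene outside the family nearest to each member was taken by distance over the log2(CPM + 1) values of the 2 libraries, which is a measure of level more than of pattern. Mir100, at 4831 and 6502 CPM, was nearest to Mir30d, Mirlet7f-2, at 4265 and 3959 CPM, to Mir30a, and Mir598, at 2700 and 2945 CPM, to Mir30e. Mirlet7a-1, at 308 and 237 CPM, was nearest to Mir30c-2, and like it was lower in replicate 2. Mir325, at 174 and 141 CPM, was nearest to Mir30c-1, and Mir505, at 122 and 134 CPM, to Mir30b. Mirlet7f-2 moved between the libraries in the direction opposite to Mir30a.

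Markers of the labelled tissue and of other cells were summed for reference. Of 9 neuronal marker genes 7 were detected, at 32939 and 47570 CPM in all. The 2 that were not are Mir124a-2 and Mir124a-3, copies of the neuronal Mir124a, with 1 and 0 counts and with 0 and 5 counts. The endothelial marker Mir126a stood at 14889 and 12474 CPM, the mural pair of Mir143 and Mir145a at 6456 and 6935 CPM, the oligodendrocyte list at 4367 and 2683 CPM, and the erythrocyte list at 1902 and 1128 CPM. Leukocyte and microglial markers summed to 675 and 1093 CPM and choroid plexus markers to 1042 and 974 CPM, with all 3 genes of each detected. Most of the leukocyte and microglial sum came from Mir150, at 569 and 966 CPM. The liver marker Mir122 was at 52.1 and 40.7 CPM, and 4 of 5 striated muscle markers were at 0 in both libraries, with Mir206 giving 55.1 and 24.0 CPM. Those at 0 are paired copies, Mir1a-1 with Mir1a-2 and Mir133a-1 with Mir133a-2. Reads that match several copies are counted on no gene. Values at or near 0 for these copies or those of Mir124a therefore do not show that the microRNA was absent. Neuronal, mural, and leukocyte and microglial sums were higher in replicate 2, as were Mir30a, Mir30d and Mir30e, and the sums of all other lists were lower. Members of the neuronal list did not all move alike. Mir128-1 went from 4518 CPM in replicate 1 to 16906 in replicate 2, while Mir138-2 went from 2687 to 2104 CPM. The part of cell composition in the miR-30 differences between the libraries was not tested.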

How the data were processed

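The deposited values were whole-number counts of reads per miRNA gene, 1 table per library, not normalized. Per the file headers and the labels they used mm10 and GENCODE M21. Neither aligner nor counter is stated: not given in the sources used here. Of 3 count columns, the same-strand column was used. The 4 rows that name no gene were left out of totals; they held 63.9% of reads in replicate 1 and 65.9% in replicate 2. CPM was computed as counts per 1000000 over all miRNA genes, and means with SD over 2 libraries. The exact binomial test described below sets 1 library against 1 library, so its p-values rest on counting error only. They hold no spread between animals, and no source says that the samples are separate animals.

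Detected meant 2 CPM or more in both libraries. Detected genes were tested by a two-sided exact binomial test (scipy 1.17.1) with TMM factors from edgeR 4.0.16 in R 4.3.3, Benjamini-Hochberg adjustment and a threshold of 0.05. The test was checked on counts simulated with counting error alone, so that check does not cover any other spread between the libraries. Log2 ratios had 0.5 added to each count. Alternatives used plain totals, DESeq2 1.42.0 size factors, no filter, the unstranded column, other denominators and 1 library at a time.

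The members and lists were chosen with earlier results of these data known. Named genes were the members, genes sharing the 5p seed, Mir30f, the gene nearest to each member, sums of 3 comparison families and marker lists. Mir6958 was named after its values were seen.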

Additional observations from a re-analysis of the deposited data

Results flagged for a closer look

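The opposite-strand column, which gave no level above, held 6554 counts for Mir30f in replicate 1 and 12026 in replicate 2, both above the limit of 3 counts. These equal the same-strand counts of Mir30e, which lies on the same bases. The miR-30 genes themselves had 0 opposite-strand counts in both libraries.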

How the results depend on the processing

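The summed miR-30 level, 13373 CPM, was 4682 when scaled to all reads of each library, 23480 CPM with the 5 most abundant genes left out of the total, and 11014 CPM in the unstranded column, where Mir30e is at 0. With 1 library left out it ranged from 12198 to 14548 CPM. Other scalings, Mir30f or Mir384 added, or the Mir30c genes left out gave 12923 to 13641 CPM, within 1 SD. The count of 4 differing members was 4 with plain totals, DESeq2 size factors or no filter, 3 of 5 tested in the unstranded column, and 0 at 1.5-fold or more. Over all genes the count was 204 of 401 tested, 205 of 401 with plain totals and 198 of 401 with DESeq2 size factors. It was 210 of 715 tested with no filter, 184 of 376 in the unstranded column, and 75 of 401 at 1.5-fold or more. All 23 recomputed log2 ratios of members kept their direction and side of the threshold. In the unstranded column Mir30e held 0% of its pair with Mir30c-1, in place of 95.2%. With 1 library left out, the pair shares ranged from 94.5% to 95.9% for Mir30e, 97.5% to 97.8% for Mir30d and 92.1% to 95.1% for Mir30a. Of the 5 steps in the order of members, all stayed apart under the other denominators and scalings, and 4 per annotated nucleotide. Of 48 recomputed member levels 17 moved by more than 1 SD, mainly with the denominator. Levels with 1 library left out could not move that far, since each of 2 values always lies within 1 SD of their mean. No paired analysis was possible because there is 1 group, and 1 library alone allows no test between libraries. Depth limits Mir30b and Mir30c-1 most, with 281 to 512 counts.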
